A study of Mus musculus with 4 samples.

Results

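Wild-type LSK cells were compared with wild-type myeloid progenitors (MP) of mouse bone marrow across 12239 genes, on 2 of the 4 Affymetrix arrays of the study. LSK cells lack lineage markers and carry Kit and Sca1 on their surface. MP cells passed the same lineage and Kit gates but lack Sca1, and the study took them as its control for genes enriched in LSK cells. The other arrays held LSK and MP cells of Fbw7-deficient mice and serve here as a second pair of the same populations. Fbw7 is the substrate-binding subunit of an SCF ubiquitin ligase, and neither the allele nor the deleter line behind the deficiency was named in the labels. All mice, the wild-type ones included, had received 3 injections of polyI:C, a synthetic RNA that triggers an interferon response, at 20 ug per g body weight, with marrow harvested 2 weeks afterwards. The sort started from 1 marrow pool of 3 mice for each genotype, which makes LSK and MP of a genotype 2 gates on the same animals, each hybridised to 1 array. The labels used here name no age, sex or strain.

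The genes were those whose highest value over the 4 arrays reached an intensity of 157, the median of all values, out of 18193 named genes, with 1 probe set standing for a gene. Differences are log2 values of the wild-type LSK array minus the wild-type MP array, so a positive value is higher in LSK and a value of 1 is 2-fold. With 1 array a side there is no replicate error, no test was made, and the number of arrays limits the precision. A gene is counted as higher or lower at 2-fold. Values below 157 are not shown to be above background, so the exact fold of a gene that is below it on one side is not established. In sorted bulk cells, fewer cells that express a gene and less RNA in each of them cannot be told apart.

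LSK cells hold the hematopoietic stem cells, which are mostly out of cycle, together with multipotent progenitors, some of which already transcribe lymphoid genes. Loss of Sca1 with Kit kept marks committed myeloid progenitors, a mixture of granulocyte-monocyte progenitors, common myeloid progenitors and progenitors of megakaryocytes and red cells. Commitment replaces a stem cell network built on factors such as HLF, MECOM and MEIS1 by lineage programmes: C/EBP factors with PU.1 for granulocytes and monocytes, GATA1 with KLF1 for red cells.

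Apart from Kit, a marker of both, the measured LSK and MP markers ran in the direction of the sort. The gene that separates the gates was not among them. Kit, the stem cell factor receptor on which both populations were gated, read 6723 in wild-type LSK and 6509.9 in wild-type MP, a log2 difference of 0.05. Ly6a, which encodes Sca1, is not analysed here. All 8 LSK markers that were measured read higher in LSK, Kit least of them, and 11 of 12 MP markers, all but Kit, were higher in MP. The summed intensity of the LSK markers was 44474 in LSK and 16407 in MP, and that of the MP markers was 64170 and 170729. Kit counts in both sums, and in MP it and Cd34 (6491) make up most of the LSK sum, while Procr (187) and Hlf (478) were low there. The LSK array carried clear signal of some MP genes: Mpo, the myeloperoxidase gene of granulocyte progenitors, read 24989 in LSK and 36135 in MP.

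Genes of cells that a lineage gate should remove were read as well. The 6 neutrophil markers were all above the filter on all 4 arrays, with a summed intensity of 63238 in wild-type LSK and 95009 in wild-type MP; S100a8, a subunit of calprotectin, read 18156 and 26149. The macrophage markers summed to 832 and 1175, the B cell markers to 1640 and 1848 and the T and NK cell markers to 1181 and 1378. The stromal and endothelial markers summed to 831 in LSK and 1918 in MP, with the collagen gene Col1a2 at 288 and 1225, while the endothelial cadherin gene Cdh5 read 49.7 and 50.6. The plasma cell class, Jchain and Igha alone, summed to 432 and 4672. Each of these sums was higher in MP, and their part in the differences below was not tested. The 3'/5' ratio of the Gapdh control probe sets was 4.30 in wild-type LSK and 2.60 in wild-type MP, against 2.75 and 2.95 in Fbw7-deficient LSK and MP. The Actb controls ran the same way in wild-type cells (3.53 and 2.67), and the Tfrc controls the opposite way (5.68 and 8.14). RNA quality as read by these ratios differed between the arrays in no single direction, and its part in the results was not tested.

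More genes were higher in LSK than in MP. Of 12239 genes, 912 (7.45%) were 2-fold or more apart, with 618 (5.05%) higher and 294 (2.4%) lower in wild-type LSK. The counts of list members given below are to be read against these shares. The median difference over all genes was -0.02, and 48% of genes lay above 0. Centring each array on its own median moved that median by -0.11 and the counts to 492 higher and 360 lower, so the excess of LSK-high genes was smaller on that scale. At 4-fold there were 101 genes higher and 65 lower, and at 8-fold 23 and 17. For 117 of the 618 genes the MP value, and for 62 of the 294 the LSK value, lay below 157. A further probe set above the filter was present for 289 LSK-high genes: all further probe sets were higher in LSK for 231, and at least 1 was so by 2-fold for 137. Of the 108 such MP-high genes, this held for 102 and 62.

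**Figure D1:**
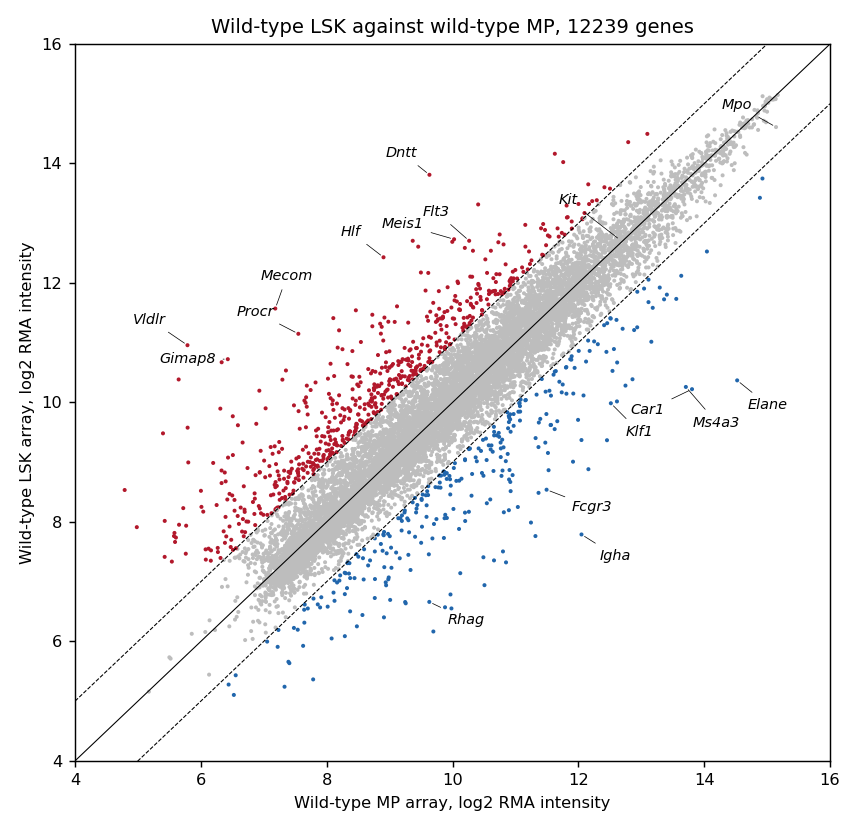
Each point is 1 of 12239 genes, with log2 RMA intensity in wild-type MP (x axis) and wild-type LSK (y axis); the solid line marks equal values, the dashed lines 2-fold, and red and blue points the 618 genes higher and the 294 lower in LSK. Mecom, Procr, Hlf and Dntt lie far above the band and Elane, Car1 and Ms4a3 far below it, while Kit and Mpo lie inside it.

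The gene furthest toward LSK was Vldlr, the receptor for very low density lipoprotein, with 1988 in LSK and 55.2 in MP (36.0-fold). Its 4 further probe sets above the filter gave log2 differences from 1.34 to 4.97. Ddx4, an RNA helicase gene best known from germ cells, read 1336 and 50.1, and Pglyrp2, which encodes a peptidoglycan amidase, read 1631 and 80.4. The receptor gene P2ry10 read 715 and 42.1 and the kelch-like gene Klhl4 read 370.5 and 27.6. All 5 MP values lay under the filter, so these genes were read in LSK and not shown to be above background in MP. Itih5, of the inter-alpha-trypsin inhibitor family, stood well above the filter on both arrays (6678 and 660.1, 10.1-fold), and Fstl1, a secreted follistatin-like protein gene, read 510.1 and 55.7.

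The stem cell transcription regulators were higher in LSK almost throughout. Of 36 members kept (44 listed, 41 of them named on the array), 14 were 2-fold higher, 0 lower and 34 above 0, with a median of 0.84 against -0.02 over all genes. Mecom, which encodes the zinc finger factor EVI1, read 3043 in LSK and 145 in MP, which is below the filter, a log2 difference of 4.39 that was 1.60 when all its probe sets were averaged. Hlf, of the PAR bZIP family, read 5515 and 478, and the homeobox gene Meis1 read 6798 and 1041, with 0.63 and 1.65 on its further probe sets. The high mobility group gene Hmga2 read 4622 and 722 (log2 2.68). Mycn, the MYC family member of stem cells, differed by 2.47 on its brighter probe set (2551 and 461) but by -0.13 on the other, and its mean over probe sets, 0.81, was below 2-fold. The ETS factor gene Erg was also past 2-fold (log2 1.94). Other members passed 2-fold on their brightest probe set but not on all: the RNA-binding protein gene Msi2 (2.21, others -0.20 to 2.93), Zfp521 (2.25, other 0.60), the homeobox gene Hoxa9 (1.49, other 0.23) and the DNA demethylase gene Tet1 (1.37, others 0.59 and 0.92).

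Several regulators shared by stem cells and early myeloid or erythroid cells differed much less. Gata2 differed by 0.37, Tal1 by 0.29, Lmo2 by 0.23 and Lyl1 by 0.36. Bmi1, a Polycomb gene needed for self-renewal, differed by 0.15 and Hoxb4 by 0.10. Gfi1b, a repressor of erythroid and megakaryocyte cells, had the lowest value of the list, -0.61.

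Among the stem cell surface and signalling receptors, 16 of 33 members were 2-fold higher in LSK and 2 lower, with a median of 0.97 (0.61 with no level filter). Procr, the endothelial protein C receptor gene that marks stem cells, read 2269.7 and 187 (12.1-fold). Ctla2a and Ctla2b, cysteine protease inhibitor genes with similar sequences that probe sets may share, read 18335 and 6238 in LSK and 3159 and 701 in MP. The lymphotoxin beta gene Ltb read 1046 and 200.1. Fgd5 (log2 2.32), Thy1 (2.02), the endothelial guidance receptor gene Robo4 (1.91) and Tek, the angiopoietin receptor gene (1.39), were higher too. Slamf1, which encodes the stem cell antigen CD150, read 703 and 325 (2.16-fold, and log2 0.77 over all its probe sets), and Cd48, carried by multipotent progenitors and not by most stem cells, read 7634 and 4995 (log2 0.61). Cd34 read 12745 and 6491, 1.96-fold and just under the threshold. The members lower in LSK were Prom1, the prominin gene, at 332 and 1551, and the retinaldehyde dehydrogenase gene Aldh1a1 (log2 -1.32). Its relative Aldh1a7, outside the list, was lower as well, at 95 and 942.

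**Figure D2:**
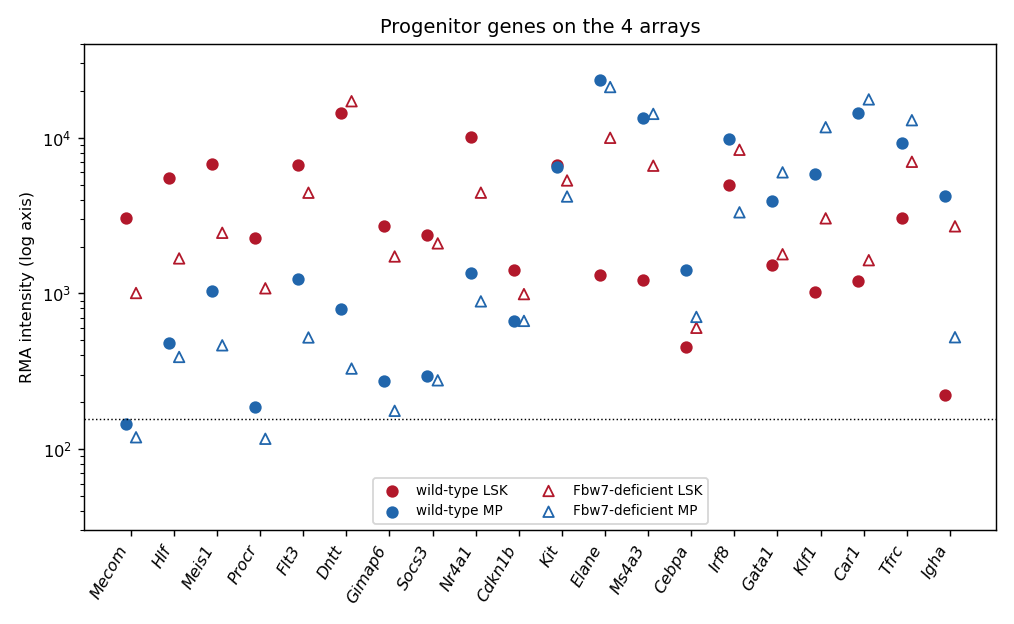
RMA intensity (log axis) of 20 genes on the 4 arrays, with filled circles for wild-type and open triangles for Fbw7-deficient cells, red for LSK and blue for MP; the dotted line is the level filter of 157. LSK lies above MP in both pairs from Mecom to Cdkn1b, below it in both pairs for Elane, Ms4a3, Cebpa, Gata1, Klf1, Car1 and Tfrc, and on opposite sides in the 2 pairs for Irf8 and Igha.

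Quiescence and growth-arrest regulators were higher in LSK, with 16 of 36 members past 2-fold, 0 lower and a median of 0.91. The cyclin-dependent kinase inhibitor genes Cdkn1a (1873 and 801) and Cdkn1b (1409 and 663), which encode p21 and p27, were 2.34-fold and 2.13-fold higher; Cdkn1b had a log2 difference of 0.98 after centring. Cdkn1c, the p57 gene, read 180.4 and 101 (log2 0.83), close to the floor. Ndn, which encodes the growth suppressor necdin, read 764 and 55.3 (13.8-fold), although 1 of its 4 further probe sets gave only 0.34 and the mean of all was 1.90. The nuclear receptor genes Nr4a1 (10181 and 1357) and Nr4a2 (1290.2 and 226) were 7.5-fold and 5.7-fold higher. Socs3 and Socs2, feedback inhibitors of cytokine signalling, differed by 3.01 and 2.24; without probe sets shared between transcripts Socs3 differed by 0.82, and the further Socs2 probe sets gave -0.16 and 2.74. The FOXO factor genes Foxo3 and Foxo1 differed by 1.57 and 1.01 (0.23 and 0.39 on the other Foxo1 probe sets), and Klf4 and Klf6 by 1.51 (0.58 on its other probe set) and 1.15. Cited2 (-0.75), Gadd45g (-0.52) and the retinoblastoma gene Rb1 (-0.34) lay below 0.

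Immediate early and NF-kB feedback genes, which respond quickly to signals and to cell handling, lay above 0 in 25 of 26 members, with 7 past 2-fold and a median of 0.71. The highest were Dusp5 (3749 and 760.3) and Spry1 (2770.0 and 772), which encode a phosphatase and a Sprouty protein that restrain ERK signalling. Nfkbiz, an atypical IkB gene, differed by 1.62, and the ERK phosphatase gene Dusp6 by 1.28. The AP-1 gene Fos differed by only 0.20 and Nfkbia by 0.11.

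Early lymphoid priming genes were higher in LSK, with 9 of 22 members past 2-fold, 0 lower and a median of 0.69. Dntt, which encodes terminal deoxynucleotidyl transferase and is used at antigen receptor joining, read 14365 in LSK and 794 in MP (18.1-fold), the largest difference of the list by far. Flt3, the cytokine receptor gene of multipotent progenitors, read 6679 and 1229 (5.43-fold). Rgs1, a regulator of G protein signalling, read 8033 and 2281, and the E protein gene Tcf4 read 3345 and 1046. The chromatin organiser gene Satb1 (1.55, others 0.19 to 1.94) and Mef2c (1.28, others 0.45 to 1.63) were past 2-fold on some of their probe sets. Ikzf2 (1.47) and Notch1 (1.33) were so on the brighter probe set, while the other showed almost no difference for Ikzf2 and 0.21 for Notch1. Later genes were closer but dim: Il7r differed by 0.42 (399 and 299), Rag1 by 0.44 (221 and 162) and Rag2 by 0.55 (225 and 154). Rag1 and Rag2 lay near the filter in MP, so the size of their differences is not established. The B cell list ran the other way by small amounts, with 15 of 18 members below 0 and a median of -0.34. Several members read near or below the filter, such as Cd79a (148 and 260), Spib (178 and 304) and Ebf1 (94.8 and 112). Only Cd72, a B cell receptor modulator gene (1652 and 563), was 2-fold higher and only the joining chain gene Jchain 2-fold lower. Each is 5.6% of the list, against 5.05% higher and 2.4% lower over all genes.

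The GIMAP genes encode GTPases of lymphocytes and lie side by side on 1 chromosome in the RefSeq table of GRCm38.p6, with no other protein-coding gene among them. Of the 8 members, 6 were 2-fold higher in LSK, with a median of 2.32 (1.76 when probe sets were averaged), the highest of the 34 lists. Gimap8 read 1691 and 86.1 (19.6-fold), Gimap6 2722 and 275, Gimap7 507 and 73.2, and Gimap1 1933 and 289. Gimap5 (1.89) and Gimap9 (1.63) followed, while Gimap4 (0.44) and Gimap3 (-0.02) were within 2-fold. The other Gimap4 probe set gave 1.73 in wild-type cells. The Gimap4 probe set with 0.44 in wild-type cells differed by 2.68 in the Fbw7-deficient pair.

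Interferon-stimulated genes were higher in LSK 2 weeks after polyI:C, with 9 of 34 members past 2-fold, 0 lower, 28 above 0 and a median of 0.62. Oasl2, an oligoadenylate synthetase-like gene, read 956 and 130.5, the immunity-related GTPase gene Iigp1 799 and 118, Rtp4 2740.2 and 483, and the guanylate-binding protein gene Gbp2 3121 and 555. Ifit1 differed by 1.61 and Ifitm3 by 1.14. Gbp3 (-0.62), Ifit3 (-0.13) and Bst2 (-0.13) lay below 0. All animals had received polyI:C, so a level without it cannot be given.

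The MHC class II presentation genes were uneven. Of 8 members 2 were 2-fold higher: H2-Ob, a chain of the peptide-loading modulator H2-O (2461 and 469), and H2-DMa, a chain of the peptide exchange factor (5319 and 2442). The classical chain genes H2-Aa (0.39) and H2-Ab1 (0.17) differed little, and the invariant chain gene Cd74 read 402 and 707 (log2 -0.81).

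Adhesion and homing receptors were mostly level, with a median of 0.13. Against 5.05% over all genes, 3 of 22 members (13.6%) were 2-fold higher in LSK. These were P-selectin, Selp (1019 and 203, 5.03-fold), Icam1 (1033 and 421) and the von Willebrand factor gene Vwf (1423 and 687; log2 0.94 after centring). The chemokine receptor gene Cxcr4, which holds progenitors in marrow, differed by -0.50 and Vcam1 by -0.69. Megakaryocyte and platelet genes had a median of 0.37, which turned to -0.03 with no level filter. Of its 16 members the multimerin gene Mmrn1 (1604 and 267) and Plek, which encodes pleckstrin (1.02; 0.60 when its probe sets were averaged), were 2-fold higher, and the platelet chemokine gene Ppbp (133 and 348) was lower. Pf4 differed by 0.11 and the integrin gene Itga2b by 0.54.

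On the MP side the granulocyte and monocyte progenitor genes stood furthest from 0. All 22 of 22 members kept were lower in LSK, 15 of them by 2-fold, with a median of -1.30. Elane, which encodes neutrophil elastase, read 1322 in LSK and 23552 in MP (17.8-fold). Ms4a3 read 1225 and 13381, Igsf6 515 and 3859.8, and F13a1, the coagulation factor XIII A gene of monocytes, 1035 and 6264. The primary granule protease genes Ctsg (10997 and 30258) and Prtn3 (13756 and 31123) differed by -1.46 and -1.18. They were thus bright in LSK too, and so was Mpo (log2 -0.53), stored in the same granules as elastase. The histidine decarboxylase gene Hdc (-2.47), Anxa3 (-2.47) and the haptoglobin gene Hp (-2.14) were lower in LSK by more than 4-fold.

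The myeloid transcription factors and growth factor receptors were lower in LSK by smaller amounts, with 4 of 25 members past 2-fold, 0 higher and a median of -0.27. Fcgr3, the low-affinity Fc receptor gene whose product is used to gate granulocyte-monocyte progenitors, read 372 and 2884 (7.76-fold). Cebpa and Cebpd, C/EBP factor genes, read 451 and 810.4 in LSK and 1416 and 2648 in MP; the other Cebpd probe set gave -0.40. The macrophage colony-stimulating factor receptor gene Csf1r read 2567 and 5624 (2.19-fold). Irf8, a factor of monocytes and dendritic cells, read 4955 and 9804, 1.98-fold and just short of the threshold, and Spi1, which encodes PU.1, differed by -0.44. Some members pointed to LSK without passing 2-fold: the interleukin receptor gene Il6ra (0.74), Csf3r, the granulocyte colony-stimulating factor receptor gene (0.41), and Jun (0.57).

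Genes of mast cells, basophils and eosinophils had a median of -0.67 (-0.18 with no level filter), with 3 of 15 members 2-fold lower in LSK and 0 higher. Ms4a2, the beta chain gene of the high-affinity IgE receptor, read 642 and 2845, the eosinophil major basic protein gene Prg2 2447 and 7829, and the basophil protease gene Mcpt8 780.2 and 2007. The late neutrophil and macrophage list had 28 of 31 members below 0 and a median of -0.53. It had 5 members 2-fold lower and 1 higher, the C-type lectin gene Clec4e (1.26). The largest differences were in receptor and oxidase genes of monocytes, Clec7a (419 and 1908), Cd14 (242 and 731), Ccr2 (578 and 1593) and Cybb (758 and 1887), whereas the secondary granule genes Ltf (-0.85), Camp (-0.76) and Ngp (-0.48) were within 2-fold.

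Red cell genes were lower in LSK from the transcription factors to the membrane. Of 15 transcription regulators and receptor genes, 5 were 2-fold lower and 1 higher, with a median of -0.44. Klf1, the master activator of erythroid genes, read 1014 and 5856 (5.78-fold), Gata1 1528 and 3929 (2.57-fold), the erythropoietin receptor gene Epor 600.3 and 1364, and the coactivator gene Cited4 106 and 435. Tfdp2, a dimer partner of E2F, was the member higher in LSK (1.02), barely past 2-fold and with -0.27 to 0.16 on its 3 further probe sets, and Zfpm1, which encodes the GATA1 cofactor FOG1, was level (-0.08). Of 20 red cell membrane and globin genes, 9 were 2-fold lower, 1 higher and the median was -0.82. Car1, the carbonic anhydrase gene of early erythroid progenitors, read 1194 in LSK and 14322 in MP (log2 -3.58). The blood group genes Ermap (660.1 and 5612), Rhag (101 and 792), Rhd (358 and 2639.9) and Kel (log2 -2.04) followed. Genes of the late membrane skeleton were closer, with Slc4a1, the band 3 gene, at -0.76, Ank1 at -0.89 and Sptb at -0.54. The glucose transporter gene Slc2a1 was higher in LSK (1.10, with 0.19 and 0.91 on its further probe sets).

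The promoters of these genes are shown because the members were lower together and the genes of GATA1 and KLF1 were among them. RefSeq windows of 300 bases, from 250 before to 50 after a gene's start on GRCm38.p6, were searched on both strands for GATAA, the core of GATA sites, and for CACCC, the core of KLF1 sites; the motifs overlapped in none of the windows printed. Of the 23 genes of the 4 erythroid, heme and iron lists that were 2-fold lower in LSK, 19 had windows in the table, and the others, Car1 among them, are left out of the shares. Of their 22 windows, 9 (40.9%) held GATAA and 20 (90.9%) held CACCC. The shares were 25.4% and 57.5% over all 32851 promoter windows of the table and 16.8% and 63.7% over the 12623 windows of the genes kept. The median GC content, which sets how often such letters occur, was 57.2%, 52.7% and 60.3% in the same order. Over all 294 genes lower in LSK, with 290 windows of 224 genes, the shares were 21.4% and 67.9%, and over the genes higher in LSK, with 675 windows, 19.1% and 66.8%. A match is a description of letters and not a site of binding. The windows of Klf1 (chr8:84901732-84902031, plus strand), Rhag (chr17:40810899-40811198, plus strand) and Ermap (chr4:119189946-119190245, minus strand) are printed as examples that held both motifs. Each held 1 match to GATAA, while windows of other genes of the set, such as Gata1 and Tfrc, held none. Capitals mark matches to either motif on either strand.
Klf1: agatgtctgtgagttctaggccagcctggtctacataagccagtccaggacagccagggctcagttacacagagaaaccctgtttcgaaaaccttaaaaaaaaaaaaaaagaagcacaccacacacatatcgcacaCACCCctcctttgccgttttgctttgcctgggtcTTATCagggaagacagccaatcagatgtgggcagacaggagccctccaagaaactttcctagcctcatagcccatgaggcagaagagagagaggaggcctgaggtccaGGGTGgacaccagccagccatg
Rhag: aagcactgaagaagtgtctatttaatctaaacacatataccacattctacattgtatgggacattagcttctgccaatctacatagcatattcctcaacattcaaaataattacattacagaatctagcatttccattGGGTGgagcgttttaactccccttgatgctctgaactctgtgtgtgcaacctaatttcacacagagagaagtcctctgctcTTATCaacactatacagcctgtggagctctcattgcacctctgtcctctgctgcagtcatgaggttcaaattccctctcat
Ermap: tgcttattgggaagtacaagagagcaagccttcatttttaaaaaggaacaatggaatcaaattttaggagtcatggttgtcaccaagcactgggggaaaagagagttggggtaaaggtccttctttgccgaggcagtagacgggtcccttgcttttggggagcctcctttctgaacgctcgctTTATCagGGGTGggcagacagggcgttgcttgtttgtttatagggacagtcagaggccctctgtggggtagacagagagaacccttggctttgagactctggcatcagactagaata

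Heme synthesis followed the same direction in every member. All 13 of 13 genes kept were lower in LSK, 5 by 2-fold, with a median of -0.77. Alas1, the housekeeping form of the first enzyme of the pathway, read 3403 and 12040.1 (3.54-fold), while its erythroid form Alas2 differed by -0.91. Cpox, coproporphyrinogen oxidase, read 347 and 1262, and Tspo2, an erythroid membrane transporter-like gene, 286 and 1801. Among 16 iron genes 4 were 2-fold lower. The iron exporter gene Slc40a1 read 467 and 1917, the biliverdin reductase gene Blvrb 677 and 2556, and the transferrin receptor gene Tfrc 3068 and 9289.8 (3.03-fold, with log2 -0.91 over all its probe sets). The iron uptake gene Slc11a2 differed by -1.15 (-0.85 over all its probe sets). Ferritin heavy chain, Fth1, was level (-0.16).

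The metallothionein genes, whose products bind zinc and copper, were among the most MP-high genes, with Mt1 at 472 and 4573 (9.7-fold) and Mt2 at 466 and 2948; the further Mt1 probe set gave -0.63. The inducible heat shock genes Hspa1a (464 and 1775) and Hspa1b (1301 and 3321) were lower in LSK too, while constitutive chaperones such as Hspa8 (0.02) and Hsp90aa1 (-0.08) were level. The list had 4 of 15 members 2-fold lower and a median of -0.47.

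Outside the lists, the genes furthest toward MP were Igha, the immunoglobulin A heavy chain gene (221 and 4238, 19.2-fold), the dermokine gene Dmkn (123 and 1455), Tlcd4 (71.7 and 829) and the amino acid transporter gene Slc38a5 (160.0 and 1845). The sphingosine kinase gene Sphk1 read 217 and 2551, with -0.72 on its further probe set, and the sphingomyelin synthase gene Sgms2 182 and 1784. Mgam, a maltase-glucoamylase gene, read 93.7 and 1011, the claudin gene Cldn15 164 and 1616, and the pseudokinase gene Trib2 254 and 2428. Tspan8 read 110.2 and 1001, but its 3 further probe sets gave only -0.36 to -0.17.

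**Figure D3:**
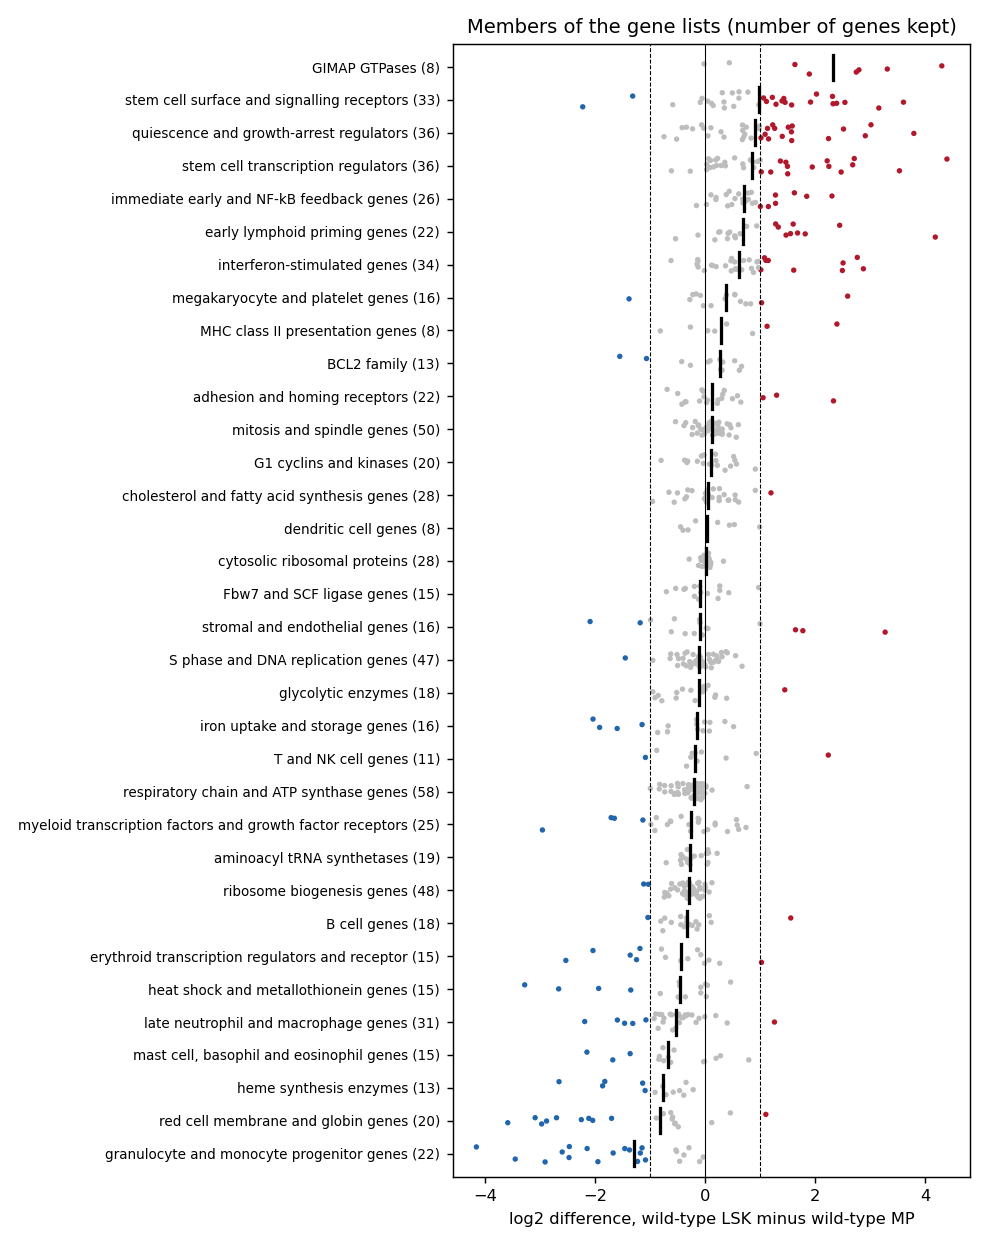
Each row is 1 of 34 gene lists, ordered by its median, with the number of genes kept; points are members by log2 difference of wild-type LSK minus wild-type MP, black bars the list medians and dashed lines 2-fold. GIMAP, stem cell and quiescence lists lie at the top, granulocyte-monocyte, red cell and heme lists at the bottom, and cell cycle and ribosomal protein lists near 0.

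Genes of proliferation were almost level between the populations. Of 47 S phase and DNA replication genes 1 (2.1%) was 2-fold lower in LSK and 0 higher, with a median of -0.10. Over all genes 2.4% were lower and 5.05% higher. Of 50 mitosis genes none passed 2-fold, 36 lay above 0 and the median was 0.13. Mki67, the proliferation antigen gene, differed by 0.04, Top2a by 0.19, Pcna by -0.33 and Mcm5 by -0.16. Some further probe sets lay further from 0 in either direction. Rrm2 differed by -0.28, with -1.17 and -0.82 on its further probe sets. A further probe set gave -0.82 for Mcm5 and 0.56 for Mcm3. On the brightest probe sets the exception was Ccne1, which encodes cyclin E1, an Fbw7 substrate that drives S phase entry. It read 1260.1 in LSK and 3445 in MP (2.73-fold lower), and its other probe set gave -1.09. Ccne2 differed by -0.10. Of the 20 G1 cyclins, kinases and MYC network genes none passed 2-fold, and their median of 0.10 changed sign to -0.01 after centring. Ccnd2 differed by 0.57, Ccnd3 by -0.37 (from -0.04 to 0.80 on its other probe sets) and Ccnd1 by -0.14 (0.64 and 0.75 on its other probe sets). Myc read 5608 and 4073 (log2 0.46). The MYC antagonist gene Mxd4 read 2127 and 1132 (log2 0.91, with -0.01 to 0.53 on its 3 further probe sets).

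Fbxw7, the gene of Fbw7, read 1355 in wild-type LSK and 691 in wild-type MP, 1.96-fold higher in LSK, with 0.66 on its other probe set. In Fbw7-deficient LSK and MP it read 1103 and 958, so its signal was not lost on the arrays labelled deficient and does not check that label; whether these probe sets lie in the deleted part is not known here. In wild-type cells it had the highest difference among the 15 ligase genes kept, none of which passed 2-fold. The scaffold gene Cul1 differed by 0.26 and the RING subunit gene Rbx1 by -0.20. The list median was -0.10; it was 0.02 when probe sets were averaged.

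Ribosome biogenesis and respiratory chain genes were lower in LSK by small amounts that ran through nearly all members, while other growth lists were mixed or level. Of 48 ribosome biogenesis genes 45 lay below 0, with a median of -0.29 and 2 past 2-fold: Nip7 (-1.12, but 0.67 on its other probe set) and Ftsj3 (458 and 935; log2 -0.96 with an offset of 50). Of 58 respiratory chain and ATP synthase genes 54 lay below 0; none passed 2-fold and the median was -0.21. Uqcrq was lowest, at 1849 and 3689, although its 3 further probe sets gave -0.26 to 0.10, and Cox7c was highest (0.76). The aminoacyl tRNA synthetases had 13 of 19 members below 0 and a median of -0.27, with Rars lowest at -0.71. Cytosolic ribosomal proteins were level on their brightest probe sets. All 28 members lay between -0.29 (Rpl4) and 0.33 (Rps6), with a median of 0.02 (-0.09 after centring). Further probe sets ranged more widely, from -0.10 to 1.33 for Rps24 and from -0.33 to 0.27 for Rps3. Averaged over probe sets, Rps6 differed by -0.07. Many cytosolic ribosomal protein genes were bright, such as Rps4x (36284 and 36854), against maxima of 43564 and 43006 on the wild-type LSK and MP arrays. The part of this in their small differences was not tested. Glycolytic enzymes had a median of -0.12. Hk3, Hk1 and Pfkp were low (-0.91, -0.85 and -0.95) and the aldolase gene Aldoc was high (457 and 168). The other Hk3 and Hk1 probe sets gave -1.32 and -2.44, and those of Pfkp -0.96 and 0.25. The enzymes of cholesterol and fatty acid synthesis centred on 0.05 (-0.06 after centring), from Fdps at -0.96 to Stard4, a sterol transport gene, at 1.19 (0.45 over all its probe sets).

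In the BCL2 family the killer genes Pmaip1 (131 and 384) and Bid (771 and 1615; log2 -0.90 over all its probe sets) were 2-fold lower in LSK and no member was 2-fold higher. The killer genes Bak1 (-0.43) and Bad (-0.27) also lay below 0. The remaining killer genes lay above 0, with Bok (0.66) the highest of the list and Bcl2l11 at 0.32. So did the survival genes Bcl2 (0.54) and Bcl2l1 (0.62). In all, 9 of 13 members lay above 0 and 4 below. The median was 0.27 and the mean -0.01, which differ in sign.

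The short lists of other cell types had few members above the filter. T and NK cell genes had a median of -0.18 and a mean of 0.03, with Gata3 higher (225 and 47.8) and the granzyme gene Gzmb lower (171 and 363; log2 -0.90 with an offset of 50). The dendritic cell list had 8 members, none past 2-fold, and a median of 0.03 that was -0.40 with the upper quartile filter. Stromal and endothelial genes had a median of -0.10 and a mean of 0.09. The basement membrane collagen gene Col4a1 (1173 and 122), the growth factor receptor gene Pdgfrb (2919 and 937; log2 0.57 without probe sets shared between transcripts) and Vegfc (500.3 and 146) were higher in LSK, while the fibrillar collagen genes Col1a2 and Col5a1 (log2 -2.09 and -1.18; -3.01 and -0.57 on the other Col5a1 probe sets) were lower.

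The Fbw7-deficient pair shares no array with the wild-type pair and shows how far the difference between the populations was read again, in another pool and another genotype. The 12 poly-A control probe sets, added to the RNA before labelling, differed between its LSK and MP arrays by a median of 0.86, against 0.03 in the wild-type pair, and the part of this in its values was not tested. In this pair, 673 genes (5.5%) were 2-fold or more apart, with 473 (3.86%) higher and 200 (1.63%) lower in LSK, and 51.8% of genes lay above 0. Of the 618 genes higher in wild-type LSK, 300 were 2-fold higher in Fbw7-deficient LSK as well, which is 48.5% of the wild-type and 63.4% of the Fbw7-deficient genes, and 606 had the same sign. Of the 294 lower genes, 104 were 2-fold lower in both, which is 35.4% and 52% of the respective genes, and 248 had the same sign. The median difference of the LSK-high genes was 1.35 in wild-type and 0.97 in Fbw7-deficient cells, and that of the MP-high genes -1.39 and -0.65; since the genes were chosen on the wild-type pair, a smaller value in the other pair is built into the choice. Across the 12239 genes, which are not independent, Pearson's r of the differences was 0.71 and Spearman's rho 0.63, and the arrays of a pair share their pool of mice.

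**Figure D4:**
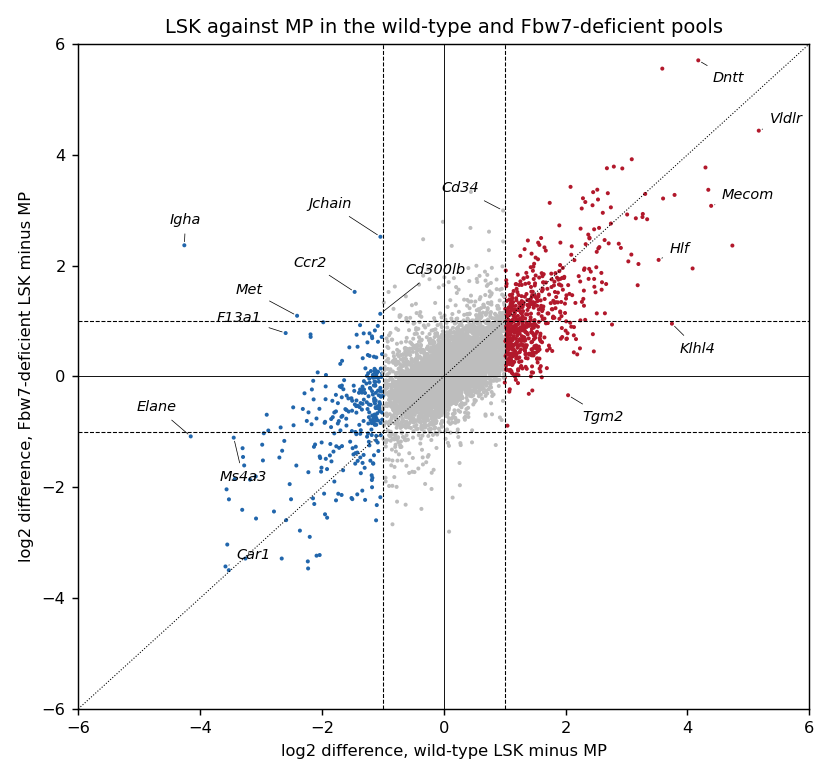
Each point is 1 of 12239 genes by its log2 difference of LSK minus MP in wild-type (x axis) and Fbw7-deficient cells (y axis); red and blue mark genes 2-fold apart in wild-type cells, dashed lines 2-fold and the dotted line equal differences. Dntt, Vldlr and Mecom lie at the upper right and Car1 at the lower left, while Igha, Jchain, Met, Ccr2 and Cd300lb lie 2-fold apart in opposite directions.

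The LSK genes recurred by name. In the Fbw7-deficient pair, LSK minus MP was 4.44 for Vldlr, 3.08 for Mecom, 3.21 for Procr, 2.10 for Hlf and 5.70 for Dntt. All of the 23 genes that were 8-fold higher in wild-type LSK but Klhl4 (0.95) passed 2-fold there. Klhl4 (41.9 and 21.7) and P2ry10 (153 and 39.7), however, read below 157 in both Fbw7-deficient LSK and MP. Their values in that pair show neither recurrence nor its lack. The list medians were 0.53 for stem cell regulators, 0.62 for quiescence, 1.13 for early lymphoid and 2.72 for GIMAP genes. On the MP side 16 of the 17 genes that were 8-fold lower passed 2-fold in the same direction, all but Igha. Car1 differed by -3.43 in the second pair against -3.58 in the wild-type one, Trib2 by -3.29 against -3.26 and Mt2 by -3.29 against -2.66. Elane (-1.08), Ms4a3 (-1.11) and Fcgr3 (-1.03) were closer between the populations than in wild-type cells, with higher values in Fbw7-deficient than in wild-type LSK: Elane read 9986 and 21158, and Fcgr3 1524 and 3106. Irf8 was on the other side, with 8366 in Fbw7-deficient LSK and 3318 in Fbw7-deficient MP. For granulocyte and monocyte progenitor genes the median was -0.27 there against -1.30 in wild-type cells, and for heme genes -0.43 against -0.77. These differences between the pairs were not tested.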

How the data were processed

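RNA of 4 sorted pools, 1 array each, had been amplified from 20 ng in 2 cycles, per the labels' protocols. The authors deposited linear intensity values, 1 for each probe set, made with RMA per the submitters' processing notes, whose version is not stated in the labels. RMA makes array distributions equal (medians 155 to 159 here), so shifts shared by most genes and RNA content per cell are not seen, and it compresses dim genes.

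Of 45101 probe sets, 34945 name 1 gene, 932 several and 9224 none or a control; 34741 symbols were updated by gene ID through RefSeq (GRCm38.p6). The probe set brightest on average over the 4 arrays (log2) stood for a gene, and genes reaching 157 on any array were kept. Differences were computed in Python 3.11.15 with pandas 2.3.3; the code was tested on simulated data.

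The comparison and the 34 lists, with 969 members (879 named, 810 kept, each in 1 list), were chosen with earlier results of these data known. The genes named are the 15 largest differences in each direction, without clone names or discordant probe sets, up to 4 per list, up to 6 in each direction of opposite sign in the other pair, and fixed names. Other list members, genes in the closing section and Cd300lb were named after their values were seen.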

Additional observations from a re-analysis of the deposited data

Results flagged for a closer look

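Some genes and lists differed in opposite directions between LSK and MP cells in the wild-type and the Fbw7-deficient pool. With 1 array per group these differences between the pools were not tested. No gene was 2-fold higher in wild-type LSK and 2-fold lower in Fbw7-deficient LSK, and 5 genes were the reverse. Igha differed by -4.26 in wild-type and 2.37 in Fbw7-deficient cells, with 2696 in Fbw7-deficient LSK and 523 in Fbw7-deficient MP. Jchain, the joining chain gene of secreted antibodies, differed by -1.04 and 2.52; the wild-type value was -0.89 with an offset of 50. Both are plasma cell genes. Met, the hepatocyte growth factor receptor gene, differed by -2.41 and 1.09, with 366 and 1941 in wild-type and 1487 and 696 in Fbw7-deficient LSK and MP. Ccr2, the monocyte chemokine receptor gene, differed by -1.46 and 1.52. The fifth, Cd300lb, differed by -1.04 and 1.13.

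As lists, B cell genes had medians of -0.34 in wild-type and 0.68 in Fbw7-deficient cells, late neutrophil and macrophage genes -0.53 and 0.51, and myeloid transcription factors and growth factor receptors -0.27 and 0.24. For the neutrophil markers the summed intensity was 128844 in Fbw7-deficient LSK and 108322 in Fbw7-deficient MP, against 63238 and 95009 in wild-type cells.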

How the results depend on the processing

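The wild-type counts of 618 genes higher and 294 lower in LSK, and the Fbw7-deficient counts, stayed within 1.5 times under a stricter level filter, no filter, an offset of 50, centring, and without probe sets shared between transcripts. With the mean of all probe sets the count of genes higher in wild-type LSK was 386, over 10924 genes, while the other counts stayed within 1.5 times; the cause was not tested. At 3-fold 303 genes were apart (188 higher, 115 lower), and at 1.5-fold 2399 (1553 higher, 846 lower). Of the 117 genes past 2-fold that the naming rule chose, 22 fell below 2-fold under at least 1 of these settings. None changed direction, but most settings could not have changed it. The level filters leave a gene's value as it is, and centring moved values by only -0.11. The largest differences were chosen without discordant probe sets. Some genes, such as Procr and Igha, had no value without shared probe sets. The unchanged directions are therefore not a check of these genes. Of 34 lists, 6 changed the sign of their median under some setting, each with a reported median between -0.10 and 0.37: dendritic, SCF ligase, megakaryocyte, G1, ribosomal protein and cholesterol genes. With the upper quartile filter the early lymphoid median was 1.28, and the stromal one -0.80. No paired analysis was possible because LSK and MP of a genotype, already from the same pool, are 1 array each, so the wild-type difference is a single pair with no spread; no replicate could be left out. Where the lower value is under 157, a fold has no established size.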

Other observations

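Beyond the lists, several genes of signalling receptors were higher in LSK. P2ry14, a receptor for UDP-glucose, read 2831 in wild-type LSK and 423 in wild-type MP, and its log2 difference was 3.05 in the Fbw7-deficient pair. Calcrl, the receptor gene for adrenomedullin and CGRP, differed by 2.39 and 2.50 in the wild-type and Fbw7-deficient pairs, the somatostatin receptor gene Sstr2 by 2.38 and 1.76, the Frizzled gene Fzd6 by 2.47 and 1.76, and Adgrl4, an adhesion receptor gene of endothelium, by 2.26 and 3.03. Col4a2, the partner chain of Col4a1 in type IV collagen, differed by 2.09 and 2.20. These genes were chosen after their values were seen, and no test was made.

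On the MP side, among genes also chosen after their values were seen, the asparagine synthetase gene Asns (-1.94 and -1.49), the sulfate activation gene Papss2 (-2.98 and -1.23, with -0.51 on its other probe set in wild-type cells) and the nonmuscle myosin gene Myh10 (-2.36 and -2.78) were lower in LSK by 2-fold in both pairs. Tgm2, the tissue transglutaminase gene, was among 12 genes higher in wild-type LSK with the opposite sign in the Fbw7-deficient pair, at 2583 and 628 against 1169 and 1479.9; its further probe sets gave wild-type differences from 0.04 to 2.10. Among the 46 genes of the opposite kind, F13a1 read 6073 and 3531, and Clec7a 1789 and 1058, in Fbw7-deficient LSK and MP.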
